A study of Mus musculus with 22 samples.

Results

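Isolated intergenic distal H3K27ac regions were defined by the H3K27ac peak calls themselves and by the GRCm38 gene annotation. Overlapping peaks of 3 libraries were united on chromosomes 1 to 19, and a united region was kept when at least 2 libraries had a peak in it, when it lay more than 2.5 kb from every annotated transcription start site (TSS), when its midpoint was outside every protein-coding gene, and when its chain held fewer than 3 distal regions, chained at gaps of at most 5 times that distance. The rule selected 1348 regions of 34063 united regions in all, which is 7.03% of the 19162 regions with a peak in at least 2 libraries and 26.0% of the 5185 distal ones among them. The other distal regions were 2068 isolated regions inside protein-coding genes and 1769 regions in chains of 3 or more, and 13977 regions were TSS-proximal.

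The series profiled histone marks in myeloid progenitors of mice with and without deletion of Bcor exons 9 and 10. The 3 H3K27ac libraries came from the deleted group (BcorΔE9-10), male Bcorfl/y mice on C57BL/6 that carried scl-Cre-ERT, a tamoxifen-inducible Cre driven by a stem cell enhancer of Scl, and that were given 1 mg of tamoxifen daily for 5 days at 3 to 6 months of age. KL cells (Lin- cKit+ Sca-1-, the myeloid progenitor fraction of bone marrow) were sorted 20 weeks later, and the deletion leaves a truncated Bcor protein at a low level. No H3K27ac library of BcorWT mice was analysed here, so no value below compares genotypes.

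H3K27ac is the acetylation of lysine 27 of histone H3, a mark laid down by the acetyltransferases p300 and CBP at active promoters and enhancers. It blocks methylation of the same lysine by Polycomb repressive complex 2. A distal acetylated region away from genes is commonly read as a candidate enhancer, which may act on a gene over long distances, and such elements hold short words bound by transcription factors such as PU.1, RUNX and GATA factors in blood progenitors.

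The labelled cell type was checked at the TSSs of marker genes. All 8 progenitor markers (Kit, Gata2, Myb, Runx1, Spi1, Cebpa, Mpo and Cd34) had a peak within 2.5 kb of a TSS in all 3 libraries, whereas none of 8 markers of other tissues, such as Alb and Myod1, had one in any library. Of 10 markers of mature blood cells that the sort removes, 6 had no peak in any library, the granule gene Ngp had one in 1 library and the T cell gene Cd5 had one in all 3, with fold enrichment of 5.12, 4.06 and 5.85. The part of such cells in the values below was not tested. The libraries held 23415, 25970 and 23764 peaks, and the genome-wide background recovered from them was 1.93, 2.02 and 2.02 fragments per position in replicates 1, 2 and 3, so depth differed little between them. If the fragment length was 200 bp, the length of the shortest deposited peaks, this corresponds to 18.04, 18.92 and 19.26 M reads.

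The sequences under 8 summits are given first, since later results turn on their composition. Pum2 and Kmt2e are the closest protein-coding genes of the regions with the highest H3K27ac, Jun is closest to a region of high GC content, and Cd34, Runx3, Spry2, Ly86 and Bahcc1 are closest to regions that hold words of blood cell factors. Each run is 200 bases of GRCm38 (RefSeq) around the strongest summit, 5′ to 3′ on the plus strand, and capitals mark every match to the words searched on both strands, which are listed with the motif results.
Region closest to Pum2, chr12:8640844-8641043, plus strand: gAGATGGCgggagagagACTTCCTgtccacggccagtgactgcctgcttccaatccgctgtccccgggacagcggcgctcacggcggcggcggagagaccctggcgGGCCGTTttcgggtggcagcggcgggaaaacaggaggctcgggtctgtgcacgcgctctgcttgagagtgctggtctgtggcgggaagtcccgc
Region closest to Kmt2e, chr5:23418300-23418499, plus strand: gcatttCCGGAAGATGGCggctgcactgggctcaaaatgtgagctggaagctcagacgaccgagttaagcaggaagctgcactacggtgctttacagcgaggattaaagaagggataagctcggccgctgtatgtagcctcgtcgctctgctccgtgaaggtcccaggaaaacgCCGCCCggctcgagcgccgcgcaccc
Region closest to Jun, chr4:95161280-95161479, plus strand: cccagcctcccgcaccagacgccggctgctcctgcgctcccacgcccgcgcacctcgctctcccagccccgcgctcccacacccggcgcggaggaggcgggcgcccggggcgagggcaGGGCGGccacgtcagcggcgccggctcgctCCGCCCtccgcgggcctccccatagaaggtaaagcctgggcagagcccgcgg
Region closest to Cd34, chr1:194879801-194880000, plus strand: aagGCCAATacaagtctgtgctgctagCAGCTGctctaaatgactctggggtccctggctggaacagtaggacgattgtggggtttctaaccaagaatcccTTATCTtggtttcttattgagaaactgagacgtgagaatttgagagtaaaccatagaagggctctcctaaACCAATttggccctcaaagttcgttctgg
Region closest to Runx3, chr4:135178827-135179026, plus strand: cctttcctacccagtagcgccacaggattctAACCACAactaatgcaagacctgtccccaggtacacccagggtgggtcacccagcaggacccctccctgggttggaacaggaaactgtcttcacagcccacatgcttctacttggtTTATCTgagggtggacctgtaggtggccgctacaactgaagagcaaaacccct
Region closest to Spry2, chr14:105732794-105732993, plus strand: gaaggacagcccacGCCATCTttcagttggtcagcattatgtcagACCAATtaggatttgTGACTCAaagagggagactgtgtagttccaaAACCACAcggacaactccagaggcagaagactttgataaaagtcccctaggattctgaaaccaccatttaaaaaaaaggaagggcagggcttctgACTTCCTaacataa
Region closest to Ly86, chr13:37476347-37476546, plus strand: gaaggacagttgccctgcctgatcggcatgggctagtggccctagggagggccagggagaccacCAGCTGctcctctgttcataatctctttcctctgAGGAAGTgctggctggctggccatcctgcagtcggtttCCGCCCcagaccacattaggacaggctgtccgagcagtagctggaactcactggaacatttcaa
Region closest to Bahcc1, chr11:120209264-120209463, plus strand: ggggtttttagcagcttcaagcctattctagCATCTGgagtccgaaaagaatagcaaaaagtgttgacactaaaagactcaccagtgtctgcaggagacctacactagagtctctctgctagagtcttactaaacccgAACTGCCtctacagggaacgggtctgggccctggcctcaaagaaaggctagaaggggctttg
The Pum2 and Kmt2e runs both hold AGATGGC, one of the words searched for the insulator protein CTCF. In the Kmt2e run AGATGGC overlaps CCGGAAG, a word of ETS factors at promoters. The CTCF words were in 11.2% of the members, 11.6% of windows 2 kb away and 16.3% of promoters, so they were not raised at the members. The Jun run holds GGGCGG on both strands, the GC box of SP and KLF factors. The Cd34 and Runx3 runs hold a GATA word (TTATCT as read on the plus strand), and the Spry2 run holds words of RUNX, PU.1/ETS and AP-1. The runs from Cd34 to Bahcc1 were chosen because they hold such words. Runs closest to Kit, Gata2 and Ikzf1, which are not printed, hold none of the words searched. GATA words were in 11.7% of the members and 16.4% of windows 2 kb away. In 300 bp windows, 36.3% of the members held no GATA, RUNX, PU.1/ETS, C/EBP, E-box, AP-1 or MYB word. A match is only a run of letters and does not show that a factor was bound.

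H3K27ac at the members was moderate and reached a similar level in the 3 libraries. Fold enrichment, which is the fragment pileup at a summit over the local background as MACS2 reports it, had a median of 4.52 in replicate 1, 4.51 in replicate 2 and 4.92 in replicate 3 (mean 4.65 ± 0.23, SD, n = 3), each over the members with a peak in that library. These levels chose the members in part and are given as a description. A summit held a median of 15, 15 and 18 fragments, so a single value rests on few molecules. The median over TSS-proximal regions was 7.10, 7.22 and 8.13, above the members in every library. Isolated regions inside genes had 4.30, 4.27 and 4.56, and regions in chains had 4.31, 4.25 and 4.88. The members ranged in mean fold enrichment from 2.15 to 24.0, with 80% of them between 3.62 and 7.11, and in width from 206 to 2989 bp with a median of 464 bp.

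Of the members, 705 had a peak in all 3 libraries, which is 52.3% (Wilson 95% interval 49.6 to 55.0, counting error only) beside 72.9% of all regions with a peak in at least 2 libraries. The library without a peak was replicate 1 for 311 of the other members, replicate 2 for 190 and replicate 3 for 142. The share was 19.5% for the 149 members whose highest fold enrichment was under 4. It was 96.6% for the 177 members at 8 or above. The share and the level come from the same peak calls, so part of this relation is set in advance. Over the members with 3 peaks, fold enrichment in one library followed that in another with Spearman rho of 0.58, 0.58 and 0.62 across 705 regions, where TSS-proximal regions gave 0.88, 0.89 and 0.89. Regions share libraries and are not independent replicates, so these values carry no test. Within a member the coefficient of variation over the 3 libraries had a median of 18.1%, and replicate 3 was the highest for 379 of 705.

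Recurrence was then measured in a library that took no part in choosing the regions. Regions of each class were rebuilt from every pair of libraries and looked up in the one left out. Of intergenic regions chosen in this way, 69.5% had a peak in replicate 1, 79.7% in replicate 2 and 83.4% in replicate 3 (77.5% ± 7.16, SD, n = 3). Isolated regions inside genes reached 62.8%, 73.4% and 70.0%. The intergenic class was thus higher in 3 of 3 libraries, by 6.72, 6.34 and 13.4 percentage points (mean 8.81 ± 3.95, SD, n = 3, exact sign-flip permutation test, two-sided, p = 0.25, the smallest that 3 libraries allow). Regions in chains reached 69.7%, 78.5% and 79.9%, and here the difference was -0.18, 1.22 and 3.43 points (mean 1.49 ± 1.82, exact sign-flip permutation test, p = 0.50), less than its spread. TSS-proximal regions reached 90.3%, 94.6% and 95.8%, above the intergenic class in every library. Each library also took part in choosing the regions for the others, so the 3 differences of a comparison are not independent. Their SD and p do not measure independent spread, here or for the level below.

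The level in the left-out library was also higher over intergenic regions. Its median fold enrichment was 4.92, 5.00 and 5.69 over intergenic regions with a peak there and 4.64, 4.63 and 5.20 over those inside genes, a ratio of 1.06, 1.08 and 1.09 (mean 0.11 ± 0.02 on the log2 scale, SD, n = 3, exact sign-flip permutation test, p = 0.25). Over regions in chains it was 4.67, 4.63 and 5.20, so the intergenic regions were higher in 3 of 3 libraries here too (mean 0.11 ± 0.03 on the log2 scale, SD, n = 3, exact sign-flip permutation test, p = 0.25), whereas for the share replicate 1 went the other way. The 3 values of the intergenic class overlapped those of each of these classes, for the level and for the share.

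**Figure D1:**
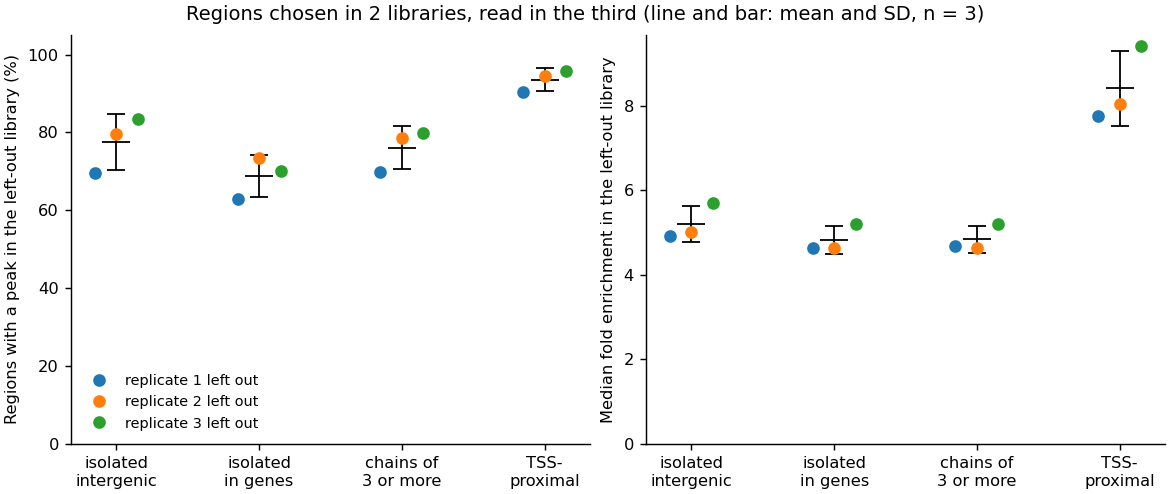
Share of regions with a peak (left, percent) and their median fold enrichment (right) in the library that took no part in choosing them, for the 4 classes of region. Points are the 3 left-out libraries and the line with its bar is their mean and SD. In each library the intergenic points lie above those of isolated regions inside genes, by 6.34 to 13.4 percentage points on the left, and below the TSS-proximal ones.

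The members lay at all distances from genes. The closest protein-coding TSS was at a median of 24.5 kb, against 15.8 kb for isolated regions inside genes and 20.3 kb for regions in chains, and the rule itself sets part of this order. It was within 10 kb for 301 members (22.3%), between 10 and 50 kb for 670 (49.7%), and over 100 kb for 178 in all, of which 25 lay beyond 250 kb. The 3 most remote members were at 1804 kb from the TSS of Cntnap5b (chr1:101901867-101902873, fold enrichment 8.88, 7.61 and 6.83), at 809 kb from Acot10 (chr15:19857547-19857773, 5.18 and 5.25 in replicates 1 and 2, no peak in replicate 3) and at 481 kb from Acvr2a (chr2:48332763-48333394, 6.78 and 4.38 in replicates 1 and 2, no peak in replicate 3). A member was alone in its chain in 893 cases and had 1 distal neighbour in 455. In 222 pairs both regions were members, with a median gap of 0.38 kb and gaps from 0.033 to 12.48 kb. Just inside the 2.5 kb limit, the 122 members at 2.5 to 3.5 kb from a TSS had a median mean fold enrichment of 4.58 and a median width of 440 bp. Just outside it, 150 intergenic regions at 1.5 to 2.5 kb had 4.70 and 492 bp. A peak in all 3 libraries was found in 44.3% of the former and 58.7% of the latter. The chain rule was applied to the former only, so these sets differ in more than their distance from a TSS.

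A second annotation placed some members at start sites. RefSeq, which the rule did not use, put a TSS within 2.5 kb of 211 members (15.7%, Wilson 95% interval 13.8 to 17.7), of which 185 were predicted transcripts and 26 curated ones. The share was 8.22% for isolated regions inside genes and 10.7% for regions in chains. The midpoint of 168 members (12.46%) lay in the body of an annotated long non-coding RNA gene and that of 9 in a pseudogene. These transcripts often begin at acetylated regions, but the peak files hold no measure of RNA.

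The 10 members with the highest mean fold enrichment were set apart by their sequence. A window of 300 bp around the summit was called CpG-island-like when its GC content was at least 50% and its CpG count was at least 0.6 of that expected from its base composition, which is the composition of most housekeeping promoters. Of the 10 highest members, 7 were CpG-island-like and 4 lay within 2.5 kb of a RefSeq TSS. The region closest to Pum2, which encodes an RNA-binding repressor of translation, had the highest mean (chr12:8640788-8641140), with 21.6, 25.6 and 24.9 from 66, 81 and 80 fragments and a GC content of 66.7%. The region closest to Kmt2e, which encodes a chromatin regulator of blood stem cells, followed (chr5:23417627-23419487) with 21.6, 21.5 and 25.7. Both were far above the median of the members in every library, at 32.99 and 14.95 kb from the TSS.

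Other regions of high level were closest to the predicted gene Gm21119 (24.8, 20.4 and 21.5), to the zinc finger genes Zfp869 (18.3, 18.3 and 22.0) and Zfp873 (19.3, 19.5 and 19.4), and to the predicted gene Gm3417 (12.7, 16.1 and 19.4). These were the 4 of the 10 highest within 2.5 kb of a RefSeq TSS. The Zfp869 region overlapped a predicted TSS of Zfp869 itself, and the Gm3417 region overlapped a TSS of Gm3255. The Zfp873 region lay 29 bp from a TSS of Gm10777, and the Gm21119 region 1068 bp from one of Gm40469. In the windows of Zfp873 and Gm3417, 100% of the words of 75 bases, the length of a read, occurred again elsewhere on the assembled chromosomes, and in that of Gm21119 20.8% did, so reads there cannot be placed with certainty. The window of the region closest to Dynlt1b (16.8, 17.3 and 20.3), a dynein light chain gene, had 30.1% repeated words. The remaining regions had no repeated word. They were closest to Sh2d6 (13.0, 18.9 and 16.9), to Spen, which encodes a repressor in Notch signalling (9.43, 15.9 and 22.1), and to Tpt1, which encodes a growth-related translation protein (15.2, 12.4 and 18.02). The Spen region was the least even of the 10, with its value in replicate 3 far above that in replicate 1.

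Repeated sequence was rare over the members as a whole. In 35 windows (2.60%) more than 50% of the words of 75 bases occurred again elsewhere, against 0.919% of isolated regions inside genes and 0.396% of regions in chains. Their local background was above 2 times the genome-wide value in 25.7% of cases, against 6.40% for the other 1313 members, and 17 of the 35 had a peak in all 3 libraries. The part of misplaced reads in these calls was not tested.

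CpG-island-like sequence ran through the class beyond its highest members. It was found in 127 members (9.42%), against 54 isolated regions inside genes (2.61%), 39 regions in chains (2.20%) and 8848 TSS-proximal regions (63.3%), while the windows 2 kb to either side of the members gave 0.408%. The median GC content of the members was 51.0% at the summit and 45.7% in those windows. With RefSeq start sites added to the annotation, 1176 regions met the rule with the chains rebuilt and 91 of them (7.74%) were CpG-island-like, against 2.104% inside genes. The 127 had a median fold enrichment of 6.13, 5.86 and 6.47 in the 3 libraries and the other 1221 had 4.44, 4.45 and 4.92, so the CpG-island-like members were higher in each library. Of the 127, 38 (29.9%) lay within 2.5 kb of a RefSeq TSS, against 14.2% of the others. When the members were split into 4 sets of 337 by mean fold enrichment, CpG-island-like windows made up 5.64%, 3.26%, 8.90% and 19.9% from the lowest set to the highest. The fold enrichment chose the members, so this is a description with no test.

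**Figure D2:**
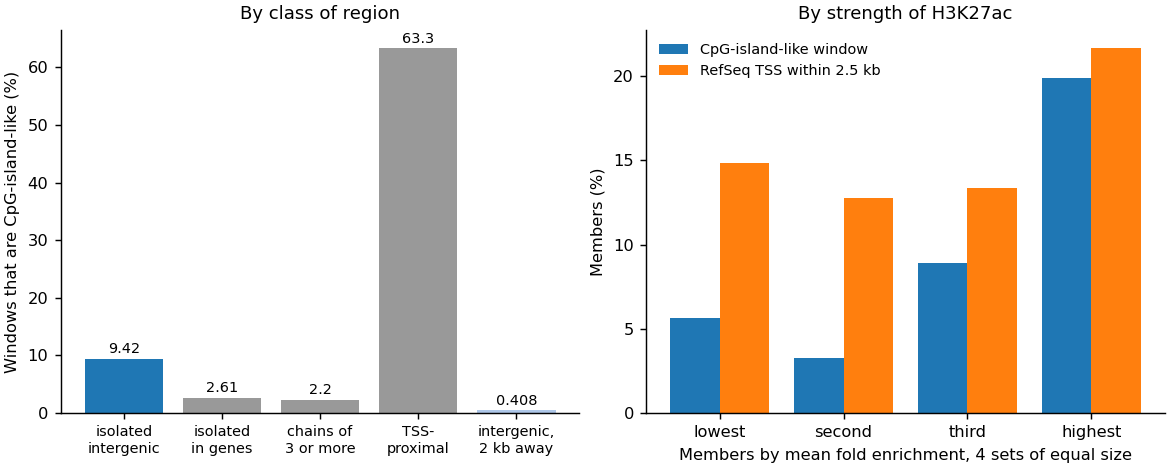
Percent of 300 bp summit windows that were CpG-island-like in each class of region and in windows 2 kb from the members (left), and percent of members with such a window or with a RefSeq TSS within 2.5 kb in each of 4 sets of equal size by mean fold enrichment (right). The intergenic members reached 9.42%, against 2.61% inside genes, and the highest set reached 19.9%.

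Words bound by transcription factors were counted in the same 300 bp windows, on both strands and with N for any base. The word of PU.1 and other ETS factors (AGGAAGT) was in 14.9% of the members, against 7.94% of the windows 2 kb away and 9.35% of 32851 RefSeq promoters of the same length. It was in 13.7% of isolated regions inside genes and 10.5% of regions in chains. The GC box (GGGCGG) was in 14.7% of the members against 4.82% 2 kb away, 6.38% inside genes, 6.84% in chains and 35.7% of promoters. The promoter ETS word (CCGGAAG) was in 5.49%, against 1.08% 2 kb away and 8.86% of promoters. These 3 words were more frequent at the summit than in the flanks, and the GC box was in 50.4% of the CpG-island-like members against 11.0% of the others, while AGGAAGT was in 5.51% against 15.9%.

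Words of other factors were above, close to or below their share in the flanks. RUNX words (TGTGGTT and TGCGGTT) were in 8.53% of the members and 7.94% of the flanks, AP-1 (TGANTCA) in 9.42% and 9.16%, C/EBP (the words TTGCGCAA and TTGCACAA and TTGCATAA and TTGCTTAA) in 3.12% and 2.23%, MYB (AACTGCC and AACGGCC) in 5.42% and 4.08%, and E-boxes (CAGCTG and CAGATG) in 37.7% and 33.6%. GATA words (AGATAA) were in 11.7% of the members and 16.4% of the flanks, HOX-PBX words (TGATTNAT) in 2.2997% and 4.27%, and NF-Y words (ACCAAT and GCCAAT) in 14.1% and 19.3%. The GATA and HOX-PBX words hold mostly A and T bases, and the members had a higher GC content than the flanks. The part of GC content in the shares of GATA, HOX-PBX and NF-Y words was not tested. CTCF core words (AGGGGGC and AGATGGC) were in 11.2% and 11.6%, and the cAMP response element (TGACGTCA) in 0.297% and 0.334%. Their shares of promoters were 6.75% for RUNX, 7.81% for AP-1, 2.82% for C/EBP, 5.56% for MYB, 30.6% for E-boxes, 11.2% for GATA, 3.22% for HOX-PBX, 23.4% for NF-Y, 16.3% for CTCF and 1.79% for the cAMP response element.

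The PU.1/ETS words were more frequent beside the summit than under it. In bins of 100 bp, AGGAAGT was in 4.45% and 4.01% of the members in the bins on either side of the summit, in 7.42% and 8.38% at 100 to 200 bp, and in 7.20% and 6.90% at 200 to 300 bp, and it fell to 2.37% and 2.82% at 900 to 1000 bp. In a window of 500 bp it was in 27.7% of the members. RUNX, C/EBP and GATA words were also less frequent next to the summit than in the bins given here beside it. RUNX words were in 2.52% and 2.67% next to the summit, 5.04% and 4.60% at 200 to 300 bp and 2.67% and 3.12% at 900 to 1000 bp. C/EBP words were in 1.04% and 1.19% next to the summit, 1.48% and 2.37% at 200 to 300 bp and 0.89% and 1.04% at 900 to 1000 bp. GATA words were in 3.34% and 4.01% next to the summit, against 5.12% and 6.01% at 100 to 200 bp and 4.97% and 5.49% at 900 to 1000 bp. The mean GC content was highest at the summit itself, with 52.5% in the highest bin of 50 bp.

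**Figure D3:**
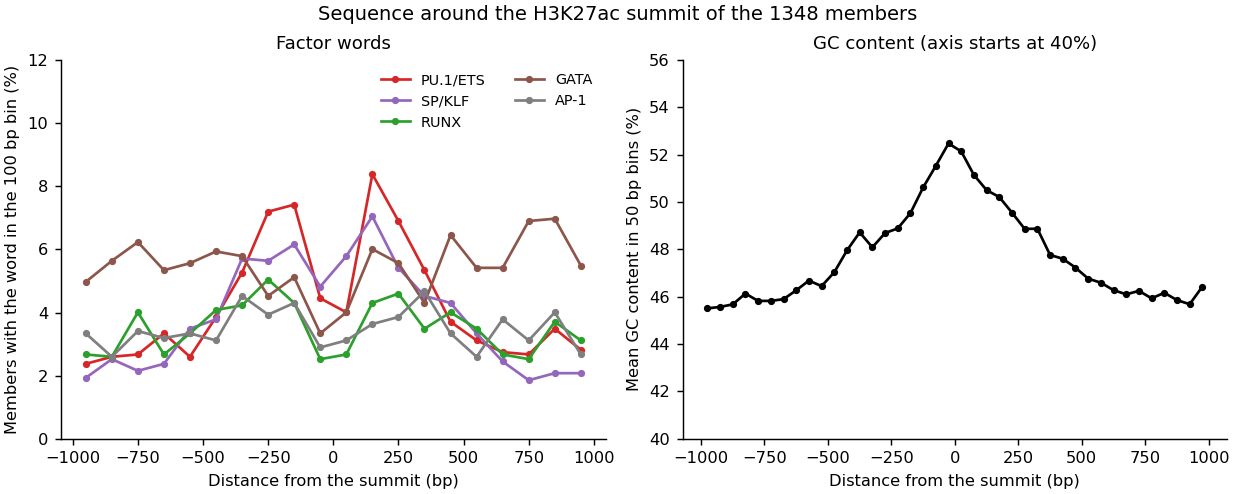
Percent of the 1348 members with a factor word in each 100 bp bin (left) and mean GC content in 50 bp bins (right) by distance from the H3K27ac summit. The PU.1/ETS word peaks at 100 to 300 bp on both sides, at 6.90% to 8.38%, with 4.45% and 4.01% in the bins next to the summit, while GC content peaks at the summit.

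The genes closest to the members included many regulators of blood progenitors. The members had 993 closest protein-coding genes, of which 735 were closest to 1 member only. Within 250 kb, 4.68% of the 20780 protein-coding genes of chromosomes 1 to 19 were closest to a member. This held for 16 of 47 listed transcription factors of stem and progenitor cells, 12 of 21 receptors, adhesion and signalling genes of progenitors, and 6 of 18 granulocyte and monocyte genes. It held for 0 of 13 erythroid and megakaryocyte, 0 of 13 lymphoid and 0 of 10 non-haematopoietic genes. Lists of 10 or 13 genes are too short for a count of 0 to stand apart from a share of 4.68%. The lists were made with earlier results of these data known, and genes with much intergenic sequence around them can be closest to more regions, so the counts carry no test. For the 47 factors the count was 14 for isolated regions inside genes and 13 for regions in chains, and no erythroid or lymphoid gene was closest to a region of either class. TSS-proximal regions were closest to 42 of the 47 factors. They were closest to only 4 erythroid and megakaryocyte, 2 lymphoid and 0 non-haematopoietic genes, so these lists had few regions of any class. The closest gene need not be the one a region acts on. Where a gene is closest to several members, the values given next are those of its highest one.

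The 53 members closest to a listed gene had ordinary levels for the class, with a median mean fold enrichment of 4.35 against 4.61 over all members, and 26 had a peak in all 3 libraries. Those closest to Egr1 and Klf6 were the highest. The region 3.54 kb upstream of Egr1, an immediate-early transcription factor gene, had 15.8, 8.75 and 13.5, and that 15.6 kb upstream of Klf6 (chr13:5845199-5845839) had 9.77, 14.4 and 9.83. Regions closest to Klf4 (10.6, 6.62 and 8.78, 118.7 kb upstream) and Jun (7.60, 7.25 and 8.60, 109 kb upstream) were CpG-island-like, with a GC content of 64.3% and 77.3%. The region 11.5 kb downstream of Fos had 7.25, 4.67 and 10.3, spread over more than a doubling.

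Among the transcription factors of progenitor identity the levels were lower. The region closest to Hhex, a homeobox factor of early progenitors (chr19:37448179-37448439), had 6.03, 7.50 and 8.85 at 11.4 kb from the TSS. A region 202 kb upstream of Runx1, a factor required for blood stem cells (chr16:93028437-93028797), had 6.01, 4.09 and 5.43 from 19, 13 and 18 fragments. Gata2, which maintains stem and progenitor cells, had 1 member 27.9 kb upstream (chr6:88165185-88165999) with 4.15, 4.45 and 4.92. The higher of 2 members of Ikzf1, the Ikaros gene, had 3.37, 3.82 and 5.53, and that of Bcl11a had 3.41, 4.63 and 3.91. The highest members of Meis1 and Runx3 had a peak in 2 libraries only, at 4.44 and 4.20 in replicates 1 and 3 and at 3.33 and 5.16 in replicates 2 and 3. The Meis1 region lay within 2.5 kb of a predicted RefSeq TSS. Hhex thus stood above the median of the members in every library, and Gata2 under it in replicates 1 and 2 and level with it in replicate 3.

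The receptors and adhesion genes showed a similar range. Cish, which encodes an inhibitor of cytokine signalling, had a region with 7.85, 8.60 and 9.75 (chr9:107312287-107313360). Itga4, the α4 integrin gene, had 7.06, 8.08 and 7.33 at 167 kb. Kit, the receptor of stem cell factor that defines KL cells, had a region 156 kb downstream of its TSS (chr5:75731027-75732196) with 5.81, 5.95 and 6.79, an even level in the 3 libraries. Cd34 had 3.37, 5.25 and 7.13, with replicate 3 more than 2 times replicate 1. The Spry2 region, 164 kb away, had 5.49, 3.27 and 5.14. The highest members of Bcl2, Cxcr4, Cdkn1a, Cd44 and Socs3 had a peak in 2 libraries, with values from 3.00 to 6.45 (Cxcr4 was closest to 4 members, of which 2 had a peak in all 3 libraries), and that of Cd47 had 4.78, 4.25 and 4.50.

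Granulocyte genes lay close to their regions. Ctsg, which encodes the granule protease cathepsin G, had a region 3.14 kb upstream (chr14:56105719-56106355) with 6.74, 6.67 and 8.10. The region closest to Cebpb, a factor of emergency granulopoiesis, had 5.46, 8.60 and 5.53 at 116 kb. Cebpe, Ly86 and Lyz2 had a peak in 2 libraries, and 44.2% of the words in the Lyz2 window were repeated elsewhere. In a short list of 4 further genes (Bahcc1, Prex1, Clic4 and Calm2), Bahcc1 was closest to a member, with 4.89, 5.00 and 4.92 at 23.4 kb (chr11:120209194-120209554), the smallest SD over the libraries (0.059) of the listed regions with 3 peaks.

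**Figure D4:**
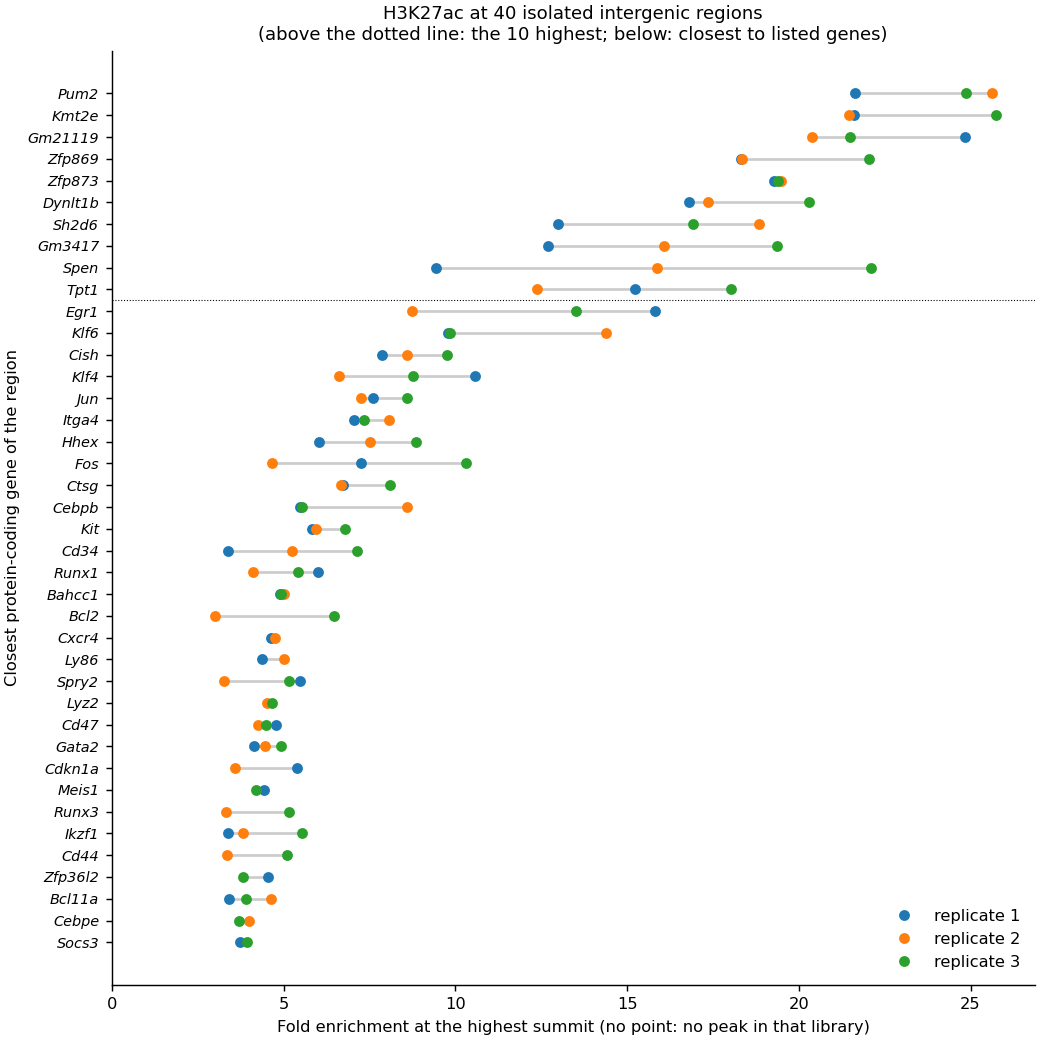
Fold enrichment in each of the 3 libraries at the 10 members with the highest mean and at the highest member of 30 listed genes, labelled by the closest protein-coding gene. Points are libraries and the grey line spans them. The 10 highest lie between 9.43 and 25.7, the regions closest to Egr1 and Klf6 reach 15.8 and 14.4, and most others lie between 3 and 9.

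Most genes with several members were outside the lists. Zfp217, which encodes a zinc finger repressor, was closest to 7 members at 10.7 to 78.1 kb, of which 6 had a peak in all 3 libraries and whose means ran from 3.71 to 6.27. Rreb1, a RAS-responsive zinc finger gene, was closest to 6 members at 121 to 183 kb, between chr13:37595225 and 37657712. Cpsf6, an RNA-processing gene, had 5 with means up to 10.5, and Olfr693, an olfactory receptor gene, had 5 with means up to 5.96, at 26.5 to 149 kb. Sox4, Tgfbr2 and Tomm20 also had 5 each. Of these, 4 at Sox4, 3 at Tomm20 and 0 at Tgfbr2, a receptor of TGF-β, had a peak in all 3 libraries. The widest member, of 2989 bp (chr8:126847870-126850858), was closest to Tomm20 at 94.98 kb with 13.8, 12.4 and 17.5. This member overlapped a curated RefSeq TSS, that of the non-coding transcript A630001O12Rik. The next widest were closest to Commd3 (chr2:18607508-18609810), with 9.36, 13.7 and 19.7, and to Tnfaip3, an inhibitor of NF-κB signalling (chr10:19061272-19063571), with 5.70, 6.18 and 7.86. The Tnfaip3 region also overlapped a curated RefSeq TSS, that of the non-coding transcript Gm51814. The Commd3 region had no RefSeq TSS within 2.5 kb.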

How the data were processed

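H3K27ac ChIP-seq was analysed in the 3 BcorΔE9-10 KL libraries. Reads of 75 bp from one end were placed on GRCm38 by the authors using Bowtie2, duplicates were dropped and MACS2 (v2.1.1) called peaks in each library; the control and settings are not given in the sources used here. The deposited peak files give a fold enrichment (a ratio to local background), −log10 p and q values and a score per summit; the score was not used. Overlapping intervals (1 bp) were united and classified with GENCODE M21, and the highest summit per library was taken. Fragments and local background were solved from the deposited fold and −log10 p, for 100% of rows. Sequence came from RefSeq GRCm38.p6. For differences in left-out libraries an exact permutation test flipped the signs over the libraries, two-sided; the study's methods give 3 mice. Scripts were tested on simulated data. Members named were, by rule, the 10 highest with 3 peaks, the highest per listed gene within 250 kb, the 3 most remote and 3 widest, the 5 genes with most members, and those at the 2.5 kb limit; Sox4, Tgfbr2, Tomm20 were added as ties after their values were seen. Some genes that the rule or marker lists name are not reported here. The members and lists were chosen with earlier results of these data known. Python 3.11.15, pandas 2.3.3, scipy 1.17.1 and statsmodels 0.14.6 were used. Alternatives changed the TSS limit, chaining, thresholds, libraries and windows.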

Additional observations from a re-analysis of the deposited data

Results flagged for a closer look

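The rule left out chromosome X, which had 518 united regions, 365 of them with a peak in at least 2 libraries. Of these, 17 met the rest of the rule for an isolated intergenic distal region, 10 had a peak in all 3 libraries and the median of their mean fold enrichment was 5.08. They were singled out as signal on a chromosome that no comparison used. With 3 libraries no single sample was tested as an outlier.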

How the results depend on the processing

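The mean left-out peak share of intergenic regions stayed above that of regions inside genes under all 11 alternatives run. The mean ratio of fold enrichment kept its direction too. The difference in share from regions in chains kept the sign of its mean, but not in every library. It was 0.36 ± 3.63 points (SD) with 5 kb chaining and 2.08 ± 5.60 with −log10 q of at least 5. Each was positive in 2 of 3 libraries (exact sign-flip permutation test, p = 0.75). No exact permutation p was under 0.25. The number of members, 1348, was 710 with −log10 q of at least 5, 803 with a peak in all 3 libraries, and 925 to 1080 without 1 replicate. It was higher with protein-coding TSSs only (1737), 5 kb chaining (1498), a 1 kb TSS limit (1492) or midpoint distance (1386), and 978 to 1258 under the other settings. The 803 are more than the 705 members with 3 peaks because chains were rebuilt from fewer regions. The median fold enrichment was 6.01 and 5.21 under the first 2 of these and 4.73 to 5.03 without 1 replicate. The share with 3 peaks was 56.5% with protein-coding TSSs only and 42.0% where peaks had to cover 50% of a region, a setting that took the left-out share to 70.0%. The median GC content was 50.7% with a 1 kb TSS limit, midpoint distance, 20 kb chaining, chaining of all distal regions, RefSeq TSSs (added after seeing the data) or windows at the midpoint, 51.7% with protein-coding TSSs, the q threshold or 3 peaks, 51.5% and 50.2% in windows of 200 and 500 bp, and 51.3% without any 1 replicate. The median TSS distance was 23.3 and 28.1 kb with TSS limits of 1 and 5 kb, 25.8 kb with protein-coding TSSs, 23.2 kb outside every gene, 23.5 kb with the q threshold and 23.2 to 25.7 kb without 1 replicate. The CpG-island-like share and its excess over regions inside genes, both tried under these settings after seeing the data, were 16.8% and 13.2 points with protein-coding TSSs, 14.8% and 10.2 with the q threshold, 12.45% and 9.12 with 3 peaks, and 9.91% to 11.6% and 6.51 to 8.98 without 1 replicate, and the share was 7.74% with RefSeq TSSs. Shares of factor words fell in 200 bp windows and rose in 500 bp windows by construction. Where not stated the cause was not tested. No paired analysis was possible between groups of samples that share replicate numbers, because only the 3 H3K27ac libraries were analysed here. Other marks with the same replicate numbers were not analysed. The left-out differences between classes of region were taken within each library, so those tests are paired by library. With 15 to 18 fragments at a typical summit, a missing peak may be a value just under the calling threshold and is not absence of acetylation.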
